A study of Mus musculus with 20 samples.

Results

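Epithelial cells are joined to each other by adherens junctions, tight junctions and desmosomes, and 10 genes of these structures were followed in cultured and uncultured mouse lung cells. They were taken by gene symbol from the deposited count table, which held values for 18012 of 67228 listed genes, and all 10 were found: Cdh1, Epcam, Cldn4, Cldn7, Ocln, Cldn2, Dsp, Pkp1, Perp and Esrp1. Cdh1 and Epcam encode adhesion proteins of the lateral membrane. Cldn2, Cldn4, Cldn7 and Ocln encode tight junction proteins, Dsp, Pkp1 and Perp belong to the desmosome, and Esrp1 encodes a splicing regulator of epithelial cells.

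In adherens junctions the cadherin bridges neighbouring cells and is tied to actin through catenins. In tight junctions claudins and occludin seal the gap between cells, and the claudins present set which ions pass. In desmosomes, plakophilins and desmoplakin link cadherins to keratin filaments. In the lung these junctions are a property of the airway and alveolar epithelium and, for part of the genes, of the mesothelium. Fibroblasts as a rule express them weakly or not at all, and factors of the Snail and Zeb families are known to repress Cdh1 and related genes in mesenchymal cells.

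The cells came from collagenase-digested lungs of normal male C57BL/6 mice, without chemical treatment. Digests, for which no sorting is described, were grown for 4 days on flat plates (2D) or inside collagen hydrogels (3D), then passaged and grown for 2 more days on the same or the other substrate. The name of a group gives the first and then the second substrate, so that 2D-2D and 3D-3D stayed on 1 substrate while 2D-3D and 3D-2D changed it. The remaining group, Sort_Fib, was not cultured and consisted of the flow-through after magnetic beads had removed CD45+, EpCAM+ and CD31+ cells. RNA-seq was done on 4 libraries from each of these 5 groups. The design asks what the first substrate leaves behind after the move to the other.

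Depth was 19.67 to 20.33 M counts per library in the cultures and 11.66 to 13.95 M in Sort_Fib, and each library had counts for at least 14487 genes. Whether replicates are separate animals or cultures is not stated. The p-values set group differences against the variation between these libraries, and that variation may be only technical. Over all genes, replicate 3 was the least like the rest of the 3D-3D group, with 32.63 to 39.33 for the chi-square divided by its degrees of freedom in its pairs, while no pair of the remaining replicates exceeded 25.58. Without it, all counts of called genes given below for 3D-3D stayed as they are. The Sort_Fib libraries held RNA of the depleted cell types: Ptprc (CD45) stood at 395 ± 17.6 CPM, Pecam1 (CD31) at 395 ± 16.9 CPM and the club cell gene Scgb1a1 at 1170 ± 140 CPM (SD, n = 4). The fibroblast collagen gene Col1a1 stood at 1830 ± 90.3 CPM there and at 2370 to 9750 CPM on average in the cultures. The macrophage gene Lyz2 was also abundant in every culture, at 4790 to 12100 CPM on average.

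Levels below are CPM, the counts scaled to a common library size, on library sizes scaled by TMM, a factor that allows for a few genes taking many reads. Differences are log2 fold changes ± SE with n = 4 libraries per group, and an adjusted p is that of edgeR's quasi-likelihood test with Benjamini-Hochberg adjustment over all genes tested. A gene was called when this was below 0.05. Where all 4 libraries of a group were at 0, the fold is a lower bound set by 3 counts over the group. Where a group held 1 to 3 counts, the ratio is given with a 95% counting interval (exact binomial), which covers counting error only.

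Summed, the 10 genes were highest in cells that had been in 3D throughout and lowest in cells that had been on 2D throughout. Their summed level was 7.01 ± 1.31 CPM in 2D-2D, 25.9 ± 4.77 CPM in 2D-3D, 50.8 ± 18.0 CPM in 3D-2D, 208 ± 61.2 CPM in 3D-3D and 87.4 ± 3.98 CPM in Sort_Fib (SD, n = 4). Of the 2D-3D sum 12.6 CPM came from Cldn2, which was at 0 in 2D-2D. Epcam, Cldn7 and Pkp1 had their lowest mean in 2D-3D, at few counts in both groups grown first on 2D. Of the mean levels in the 4 cultures, that of 3D-3D was the highest for every gene. Cldn2 alone stood almost as high in 2D-3D, and Ocln and Perp alone had their highest mean in Sort_Fib.

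**Figure D1:**
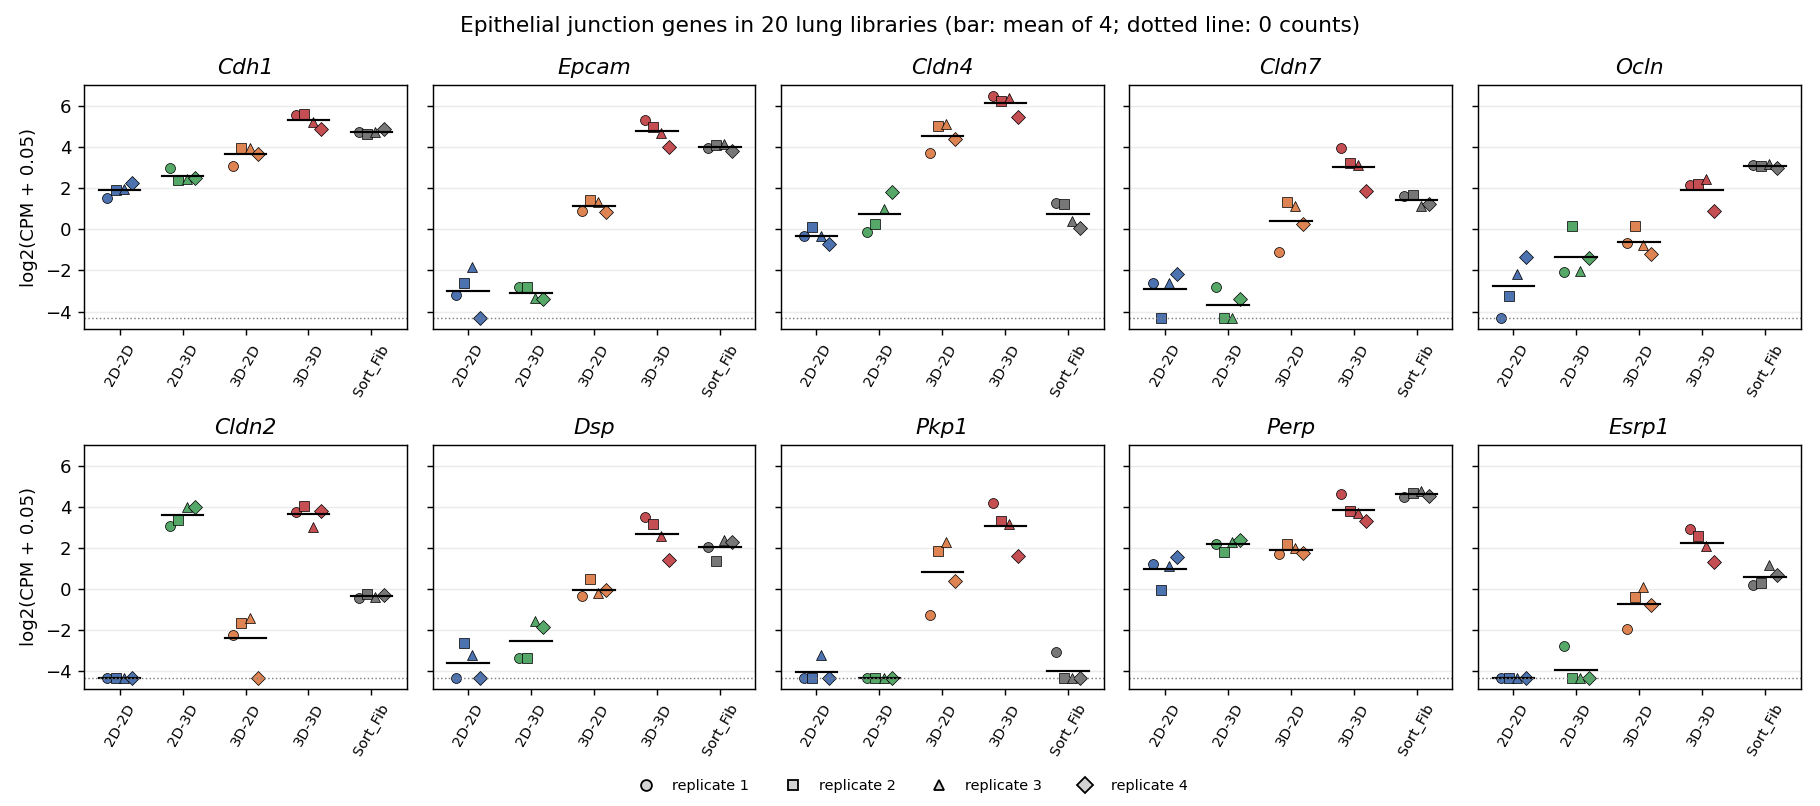
Level of each gene in each library on a log2 scale, log2(CPM + 0.05), by group (colour) and replicate (marker shape), with the mean of the log values as a bar and a dotted line at 0 counts. Cldn2 is at 0 in all 4 of the 2D-2D libraries and at 8.05 to 16.7 CPM in the 8 libraries of 2D-3D and 3D-3D, while Epcam is at 16.4 CPM or more in 3D-3D and at 0.231 CPM or less in the 8 libraries grown first on 2D.

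Cdh1 encodes E-cadherin, the cadherin of epithelial adherens junctions (gene 12550, GRCm38, chromosome 8, 106603351 to 106670246, plus strand). It was measurable in every library, at 2.84, 3.71, 3.82 and 4.75 CPM in 2D-2D and at 8.04, 5.31, 5.52 and 5.72 CPM in 2D-3D. In 3D-2D it stood at 8.56, 15.5, 15.5 and 12.8 CPM and in 3D-3D at 47.9, 49.7, 37.6 and 29.9 CPM. The 4 cultures therefore formed steps in which no library of a group overlapped the next group. Sort_Fib, at 26.6, 24.9, 27.2 and 30 CPM, lay below 3D-3D, with its highest library just above the lowest one of 3D-3D. Cdh1 rose by 3.43 ± 0.21 on the log2 scale from 2D-2D to 3D-3D (adjusted p = 1e-11) and by 1.77 ± 0.21 from 2D-2D to 3D-2D (adjusted p = 3.1e-06). From 2D-2D to 2D-3D it rose by 0.70 ± 0.22 (adjusted p = 0.0081). In RNA of whole cultures, fewer cells of a type and less RNA per cell cannot be told apart.

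Epcam encodes the epithelial cell adhesion molecule, which is also the bead target used to remove epithelial cells from Sort_Fib (gene 17075, chromosome 17, 87635979 to 87651129, plus strand). It was at 0.058, 0.114, 0.231 and 0 CPM in 2D-2D and at 0.0952, 0.0932, 0.048 and 0.0465 CPM in 2D-3D, which is 7 and 6 counts over each group. In 3D-2D it stood at 1.80, 2.61, 2.50 and 1.74 CPM and in 3D-3D at 40.8, 32.1, 26.0 and 16.4 CPM. Both groups grown first in 3D lay above all 8 libraries grown first on 2D, and those 8 overlapped each other. Epcam rose by 8.07 ± 0.39 from 2D-2D to 3D-3D (adjusted p = 2.41e-13) and by 4.33 ± 0.51 from 2D-2D to 3D-2D (adjusted p = 1.89e-06). The log2 difference of 2D-3D from 2D-2D was -0.47 ± 1.04 (adjusted p = 0.675), and it was 0.28 without replicate 3 of 2D-2D. Without that library, which held the most Epcam counts of its group, the rises to 3D-3D and 3D-2D came to 8.81 and 5.08. Sort_Fib, despite the depletion, held 15.4, 17.1, 17.9 and 14.3 CPM.

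Epcam was higher in both groups grown first in 3D than in those grown first on 2D. It also went with the second culture after 3D, being lower in 3D-2D than in 3D-3D by 3.73 ± 0.25 (adjusted p = 5.98e-11). The 250 bases before its RefSeq start are shown because they hold 2 copies of the E-box CAGGTG. Snail and Zeb factors are known to bind this word in the Cdh1 promoter. The bases lie at chr17:87635729-87635978 (GRCm38.p6, plus strand, RefSeq), and capitals mark CAGGTG or its reverse complement CACCTG.
Epcam promoter: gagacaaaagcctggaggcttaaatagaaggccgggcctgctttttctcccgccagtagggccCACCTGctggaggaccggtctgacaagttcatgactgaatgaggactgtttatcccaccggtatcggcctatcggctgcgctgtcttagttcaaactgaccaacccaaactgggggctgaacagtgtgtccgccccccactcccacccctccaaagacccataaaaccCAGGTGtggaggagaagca
The first base of each match lies 187 and 19 bases before the start. The word occurs in 17.2% of 32851 mouse promoter windows of this length, so that a match describes the sequence and no more.

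Cldn4 encodes a claudin that tightens the paracellular seal (gene 12740, chromosome 5, 134945119 to 134946934, minus strand). It stood at 0.754, 1.03, 0.752 and 0.566 CPM in 2D-2D and at 0.857, 1.17, 1.97 and 3.53 CPM in 2D-3D. In 3D-2D it stood at 13.1, 32.8, 34.8 and 20.9 CPM, and in 3D-3D at 90.5, 75.9, 83.9 and 44.9 CPM. The groups grown first in 3D were thus clear of those grown first on 2D, and the 2 groups grown first on 2D overlapped. Cldn4 rose by 6.55 ± 0.40 from 2D-2D to 3D-3D (adjusted p = 8.27e-12) and by 5.01 ± 0.41 from 2D-2D to 3D-2D (adjusted p = 2.03e-08). Its rise from 2D-2D to 2D-3D, 1.28 ± 0.53 (adjusted p = 0.0371), lost the call in 5 of 8 fits that left out 1 library: replicates 1, 3 or 4 of 2D-2D, or replicates 3 or 4 of 2D-3D. Without replicate 4 of 2D-3D it was 0.77 (adjusted p = 0.212). Unlike Cdh1 and Epcam, Cldn4 was low in Sort_Fib, at 2.37, 2.29, 1.27 and 1.01 CPM.

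Cldn4 has a CAGGTG word on the other strand, close to its start. The 250 bases at chr5:134946935-134947184 (GRCm38.p6, minus strand, RefSeq) are given with CACCTG in capitals.
Cldn4 promoter: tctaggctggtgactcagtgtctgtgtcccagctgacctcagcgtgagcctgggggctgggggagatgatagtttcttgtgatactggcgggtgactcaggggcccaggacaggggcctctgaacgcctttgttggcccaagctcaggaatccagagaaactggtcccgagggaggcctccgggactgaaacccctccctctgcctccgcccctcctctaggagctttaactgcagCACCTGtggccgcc
The match begins 14 bases before the start. Promoter windows were on hand for 6 of the 10 genes, Cldn4, Cldn7, Dsp, Ocln, Epcam and Cldn2, and a further start of Cldn7 and of Ocln made 8 windows. The word was found at 97 and 57 bases before the start in the inner window of Cldn7 and at 213 and 68 bases in that of Ocln. It was not found in the windows of Dsp and Cldn2 or in the outer windows of Cldn7 and Ocln. The grainyhead word AACNGGTT, present in 1.79% of all windows, was in none of the 8, searched on both strands.

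Cldn7, a claudin of the basolateral membrane (gene 53624, chromosome 11, 69964779 to 69967885, plus strand), was also high in the groups grown first in 3D. It held 7 counts over 2D-2D and 3 over 2D-3D. In 3D-2D it stood at 0.423, 2.50, 2.18 and 1.14 CPM and in 3D-3D at 15.8, 9.32, 8.74 and 3.59 CPM, with no overlap between these groups or with those grown first on 2D. The rise from 2D-2D to 3D-3D was 6.45 ± 0.65 (adjusted p = 1.52e-08) and that to 3D-2D was 3.86 ± 0.75 (adjusted p = 0.000555), the latter not called with limma-voom (adjusted p = 0.0661). Ocln encodes occludin, a membrane protein of the tight junction strand (gene 18260, chromosome 13, 100496507 to 100552718, minus strand). The 2D-2D libraries ran from 0 to 0.339 CPM, those of 2D-3D from 0.19 to 1.07, those of 3D-2D from 0.38 to 1.09 and those of 3D-3D from 1.80 to 5.47 CPM, and neighbouring groups among the first 3 of these overlapped. Its rise to 3D-3D was 4.75 ± 0.63 (adjusted p = 9.26e-07), or 5.60 without replicate 4 of 2D-2D. Its rise from 2D-2D to 3D-2D, 2.12 ± 0.75 (adjusted p = 0.0446), lost the call in 6 of 8 fits that left out 1 library, each of replicates 1, 2 and 3 of either group, with an adjusted p of up to 0.138. Without replicate 4 of 2D-2D it was 2.97 (adjusted p = 0.0235).

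Cldn2 differed from the other claudins in that its level went with the second culture. It encodes a claudin that forms pores for cations and water, known from leaky epithelia (gene 12738, chromosome X, 139800828 to 139811386, plus strand). All 4 of the 2D-2D libraries held 0 counts, and 3D-2D stood at 0.159, 0.272, 0.327 and 0 CPM, 14 counts in all. In 2D-3D it stood at 8.47, 10.2, 16 and 15.9 CPM and in 3D-3D at 13.5, 16.7, 8.05 and 13.9 CPM. The 8 libraries that ended in 3D were all far above the 8 that ended on 2D, and within each of these sets the groups overlapped. Against 2D-2D, Cldn2 was at least 294-fold higher in 2D-3D (adjusted p = 1.82e-10), and in 3D-3D it was at least 305-fold higher (adjusted p = 1.56e-10). The log2 difference of 2D-3D from 3D-3D was -0.04 ± 0.25 (adjusted p = 0.932), and it ran from -0.21 to 0.11 when 1 library was left out. From 3D-3D to 3D-2D the gene fell by 6.07 ± 0.42 (adjusted p = 6.69e-10). Against 2D-2D, the few counts of 3D-2D were at least 4.39-fold higher (adjusted p = 0.0419), and this call was lost in 7 of 8 fits that left out 1 library, all but that without replicate 4 of 3D-2D, with an adjusted p of up to 0.104. Sort_Fib was low but even, at 0.697 to 0.785 CPM.

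The window before the RefSeq start of Cldn2 is shown for contrast with those of Epcam and Cldn4. It lies at chrX:139800558-139800807 (GRCm38.p6, plus strand, RefSeq), and capitals mark the TATA word TATAAA and GGAATG, the word bound by TEAD factors, the partners of the coactivators YAP and TAZ.
Cldn2 promoter: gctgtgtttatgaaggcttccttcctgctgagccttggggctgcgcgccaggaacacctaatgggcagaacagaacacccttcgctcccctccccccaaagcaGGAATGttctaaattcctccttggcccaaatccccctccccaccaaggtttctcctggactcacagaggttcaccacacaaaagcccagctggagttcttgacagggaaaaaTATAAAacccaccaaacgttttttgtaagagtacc
TATAAA begins 35 bases and GGAATG 147 bases before the start, and CAGGTG is not in these letters. The words were searched on both strands, and TATAAA is found in 12.4% and GGAATG in 12.6% of all windows. In the 8 windows GGAATG was also found 70 bases before the outer start of Cldn7, and TATAAA in no other. The first 30 bases after the RefSeq start of Cldn2 were in none of its 3 annotated GENCODE transcripts, whereas those of the other windows were in at least 1, so that the start used for Cldn2 is less certain.

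Of the desmosome genes, Dsp encodes desmoplakin, which ties the desmosomal plaque to keratin filaments (gene 109620, chromosome 13, 38151294 to 38198577, plus strand). It held 3 counts over 2D-2D and 13 over 2D-3D, while 3D-2D stood at 0.74, 1.36, 0.816 and 0.922 CPM and 3D-3D at 11.3, 9.09, 6.00 and 2.63 CPM. The steps from 2D-3D to 3D-2D and on to 3D-3D had no overlap. The ratio of 3D-3D to 2D-2D was 169, with a counting interval of 57.5 to 820 (adjusted p = 3.54e-09). An annotated gene of the opposite strand, Gm10129, shares 499 exon bases with Dsp, and strand use in the counting is not given in the sources used here, so that reads of the pair cannot be told apart. Pkp1 encodes plakophilin 1, a plaque protein typical of stratified and basal epithelium (gene 18772, chromosome 1, 135871395 to 135919207, minus strand). It held 1 count over 2D-2D, 0 over 2D-3D and 1 over Sort_Fib. In 3D-2D it stood at 0.37, 3.53, 4.79 and 1.25 CPM, and in 3D-3D at 18.1, 9.99, 8.98 and 2.99 CPM, so that all but 2 of its counts came from the 8 libraries grown first in 3D, where the groups overlapped. The ratio to 2D-2D was 698 for 3D-3D (counting interval 125 to 27600, adjusted p = 6.67e-07) and 172 for 3D-2D (30.5 to 6830, adjusted p = 0.00047).

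Perp, a p53 target whose product is needed for desmosome assembly in mouse skin, was measurable in every library (gene 64058, chromosome 10, 18845020 to 18857073, plus strand). It stood at 2.26, 0.914, 2.14 and 2.89 CPM in 2D-2D, at 4.57, 3.45, 4.90 and 5.21 CPM in 2D-3D and at 3.17, 4.51, 3.97 and 3.31 CPM in 3D-2D. In 3D-3D it stood at 25.1, 13.7, 13 and 9.90 CPM, above every library of the other cultures. The 2 mixed groups overlapped. Perp rose by 2.89 ± 0.29 to 3D-3D (adjusted p = 1.71e-08) and by 1.14 ± 0.30 to 2D-3D (adjusted p = 0.00198), and the log2 difference of 3D-2D from 2D-2D was 0.85 ± 0.31 (adjusted p = 0.0544). That last value lies at the threshold: it passed with DESeq2 (adjusted p = 0.0187), with library size alone (adjusted p = 0.0352), with these groups alone (adjusted p = 0.0186) and without replicate 4 of 2D-2D (1.07, adjusted p = 0.032).

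Esrp1 encodes an RNA-binding protein that sets epithelial splice forms, among them those of fibroblast growth factor receptors (gene 207920, chromosome 4, 11331933 to 11386783, minus strand). It was at 0 in all 4 of the 2D-2D libraries and held 2 counts over 2D-3D. It stood at 0.211, 0.707, 1.03 and 0.543 CPM in 3D-2D and at 7.52, 5.94, 4.2 and 2.44 CPM in 3D-3D, without overlap. Against 2D-2D, its level in 3D-3D was at least 117-fold higher (adjusted p = 3.34e-08) and that in 3D-2D at least 14.4-fold higher (adjusted p = 0.000628). The lincRNA gene Gm26663 on the opposite strand shares 127 exon bases with it, with the same uncertainty as for Dsp.

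The comparisons of whole groups gave the following counts. From 2D-2D to 3D-3D all 10 genes were called higher, against 38.6% of the 13704 genes tested. From 3D-3D to 3D-2D all 10 were called lower, against 37.7% of all genes. From 3D-3D to 2D-3D 9 were called lower, all but Cldn2, against 15.0%. From 2D-2D to 3D-2D 9 were called higher, all but Perp, against 9.74%, and from 2D-2D to 2D-3D 4 were called higher, Cdh1, Cldn2, Cldn4 and Perp, against 36.5%. With a fit to 2D-2D and 3D-2D alone, 5 genes passed the filter on low counts and all 5 were called higher, Cdh1, Epcam, Cldn4, Dsp and Perp, while the others were not tested. With limma-voom 2 in place of 4 were called from 2D-2D to 2D-3D. From 2D-2D to 3D-2D limma-voom did not call Cldn2 (adjusted p = 0.291), Cldn7 (adjusted p = 0.0661) or Ocln (adjusted p = 0.0894). The median log2 difference of the 10 genes was 6.87 from 2D-2D to 3D-3D (6.71 with the genes at 0 set to their bounds), beside 0.05 over all genes. From 2D-2D to 3D-2D it was 4.3 (3.85 at the bounds), beside -0.01. All 10 genes passed the filter on low counts, but 7 of them, all but Cdh1, Cldn4 and Perp, had no 2D-2D library above its count minimum and passed through the groups in which they were high. For these a difference between such groups and 2D-2D was built into passing, and the counts are a description. The same holds against 2D-3D for Epcam, Cldn7, Dsp, Pkp1 and Esrp1, which had no 2D-3D library above the minimum. Cldn2 had no 3D-2D library and Pkp1 no Sort_Fib library above it. The p-values of Cldn2 against 3D-2D and of Pkp1 against Sort_Fib are therefore a description too. These comparisons share groups and are not independent of each other.

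**Figure D2:**
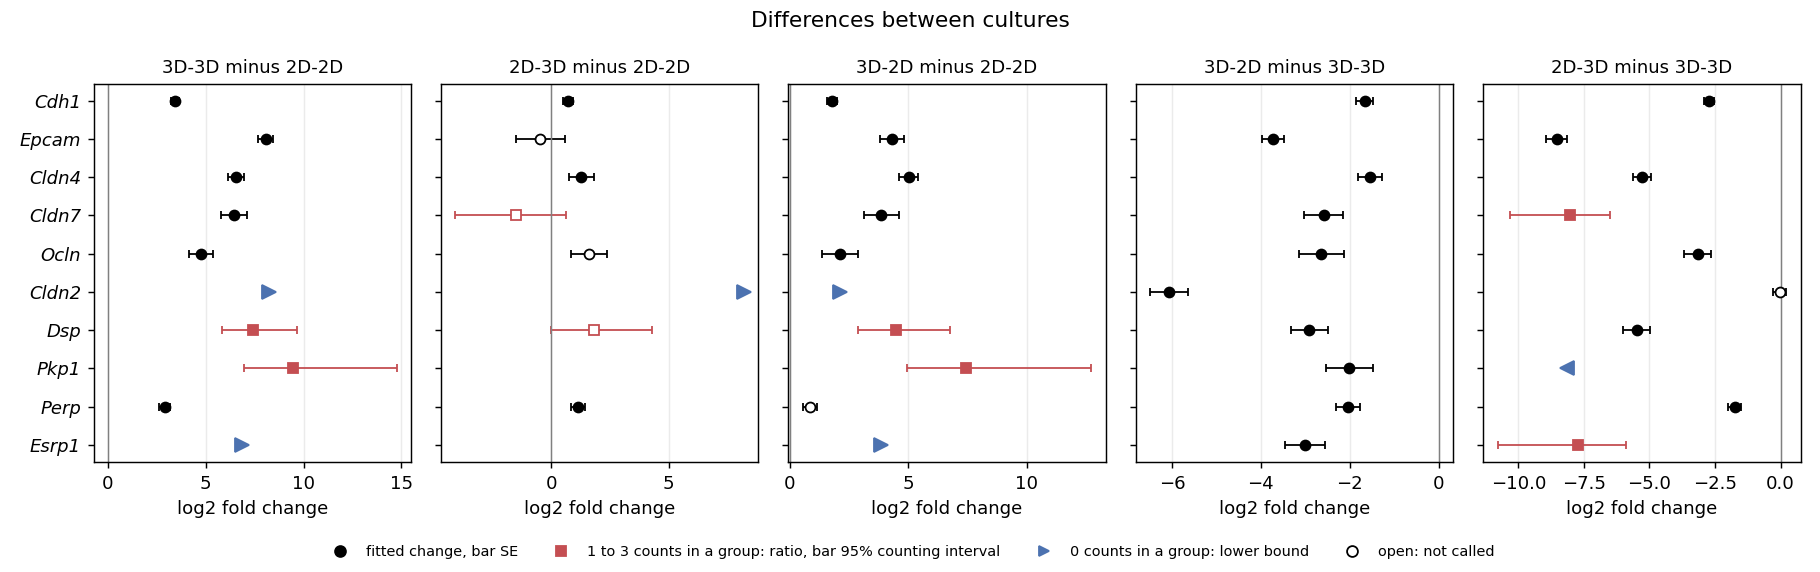
Log2 fold change of each gene in 5 comparisons of cultures (x axis, scale differs by panel), with black circles for fitted changes (bar, SE), red squares for ratios where a group held 1 to 3 counts (bar, 95% counting interval) and blue triangles for lower bounds where a group held 0. Open symbols were not called, and Pkp1 and Esrp1 have no symbol from 2D-2D to 2D-3D since both groups held at most 3 counts. In the last panel Cldn2 sits at -0.04 while the other genes lie at -1.75 or lower.

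How much of the 3D-3D level was found in the other groups differed between genes. In 3D-2D, 2 days after the move to 2D, Cldn4 stood at 34.4%, Cdh1 at 31.7%, Pkp1 at 24.8% and Perp at 24.3% of its 3D-3D mean. Cldn7 stood at 16.6%, Ocln at 15.9%, Dsp at 13.2%, Esrp1 at 12.4% and Epcam at 7.50%, while Cldn2 was at 1.44%. In 2D-3D, after 2 days in the gel, Cldn2 stood at 96.2% of its 3D-3D mean, Perp at 29.4% and Cdh1 at 14.9%. The remaining genes reached at most 10.9% there (Ocln), and Epcam reached 0.245%. These shares do not allow for the level in 2D-2D, where Perp stood at 13.3% of its 3D-3D mean, Cdh1 at 9.15% and Ocln, the next, at 3.51%. Perp in 3D-2D was not called different from 2D-2D (adjusted p = 0.0544). The falls from 3D-3D to 3D-2D ran from 1.54 ± 0.27 (Cldn4, adjusted p = 3.48e-05) and 1.66 ± 0.19 (Cdh1, adjusted p = 1.23e-07) to 3.73 ± 0.25 (Epcam, adjusted p = 5.98e-11) and 6.07 (Cldn2) on the log2 scale.

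The 2 mixed groups, which had the same substrates in opposite order, were compared directly in a contrast added after the data had been seen. In 3D-2D 7 genes were higher than in 2D-3D, against 33.2% of all genes, and 1 was lower, Cldn2, against 36.0%. Epcam was higher by 4.80 ± 0.52 (adjusted p = 4.91e-08), Cldn4 by 3.73 ± 0.34 (adjusted p = 6.44e-09), Dsp by 2.58 ± 0.61 (adjusted p = 0.000681) and Cdh1 by 1.07 ± 0.20 (adjusted p = 7.44e-05). Cldn7 was higher 43.8-fold (counting interval 14.6 to 216), Esrp1 26.3-fold (6.88 to 224) and Pkp1 at least 69.8-fold. Cldn2 was lower by a log2 difference of -6.03 ± 0.42 (adjusted p = 7.02e-10). Ocln (0.52 ± 0.59, adjusted p = 0.438) and Perp (-0.29 ± 0.28, adjusted p = 0.365) did not pass. In a fit to these groups alone, Epcam, Cldn4, Dsp and Cdh1 were again called higher, and Cldn7, Pkp1 and Esrp1 did not pass the filter and were not tested. Without replicate 2 of 2D-3D, the library with the most Ocln of its group, Ocln passed at 1.42 (adjusted p = 0.0469).

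Whether the effect of a second culture in 3D depended on the first culture was tested as an interaction, the difference between 3D-3D and 3D-2D less that between 2D-3D and 2D-2D. It was positive for 2 genes, against 10.3% of all genes, and negative for 1, against 9.10%, and with limma-voom no call was made in either direction. For Cdh1 the second culture in 3D raised the level 1.94-fold more after 3D than after 2D (0.96 ± 0.29, adjusted p = 0.023), and for Epcam 18.4-fold more (4.2 ± 1.16, adjusted p = 0.0128). Epcam held only 7 counts over 2D-2D and 6 over 2D-3D, with no library of either above the filter's count minimum. Its response after 2D rests on these few counts, so that its size is uncertain and its p-value is a description. Cldn2 was negative at adjusted p = 0.0491, with 2D-2D at 0, so that no size can be given. The call of Cldn2 was lost in 12 of 16 fits that left out 1 library, all but those without replicate 1 of 2D-3D, replicate 4 of 3D-2D or replicates 2 or 3 of 3D-3D. That of Cdh1 was lost without replicate 4 of 2D-2D (0.82, adjusted p = 0.0693) and that of Epcam was lost without replicate 3 of 2D-2D (3.46, adjusted p = 0.145). For Cldn4 the interaction was 0.26 ± 0.62 (adjusted p = 0.83), for Ocln 1.04 ± 0.98 (adjusted p = 0.546) and for Perp 0.90 ± 0.40 (adjusted p = 0.134), and Perp passed without replicate 2 of 2D-2D, at 1.15 (adjusted p = 0.0387).

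Set against uncultured Sort_Fib cells, most of the junction genes were lower in 2D-2D, 2D-3D and 3D-2D, and most were higher in 3D-3D. In 2D-2D 8 were lower, against 46.1% of 14715 genes tested. Cldn4 (-1.18 ± 0.57, adjusted p = 0.0582) and Pkp1 were not called there. Cldn4 was called lower with library size alone (adjusted p = 0.0152), DESeq2 (adjusted p = 0.0162), these groups alone (adjusted p = 0.00187) and without replicate 4 of Sort_Fib (adjusted p = 0.0394). In 2D-3D 7 were lower, against 39.9%, and Cldn2 was higher by 4.08 ± 0.33 (adjusted p = 2.44e-10), against 38.2%. In 3D-2D 7 were lower, against 45.8%, and 2 were higher, against 38.1%: Cldn4 by 3.84 ± 0.36 (adjusted p = 5.84e-10) and Pkp1 in a ratio of 140 (counting interval 24.8 to 5550, adjusted p = 2.54e-05). In a fit to these groups alone Pkp1 did not pass the filter and was not tested. In 3D-3D 8 were higher, against 38.5%, and 2 were lower, against 39.3%. The rise from Sort_Fib to 3D-3D was 5.38 ± 0.36 for Cldn4 (adjusted p = 1.22e-12), 4.12 ± 0.33 for Cldn2 (adjusted p = 2.04e-10) and 1.80 ± 0.39 for Cldn7 (adjusted p = 0.000205), all without overlap. It was 0.60 ± 0.17 for Cdh1 (adjusted p = 0.00204) and 0.83 ± 0.19 for Epcam (adjusted p = 0.000412), with overlapping libraries. For Dsp, at 0.79 ± 0.35 (adjusted p = 0.0398), it lost the call without replicate 1 or 2 of either group, at an adjusted p of up to 0.199. The Dsp call was also lost with DESeq2 (adjusted p = 0.0613), limma-voom (adjusted p = 0.0945), the replicate block (adjusted p = 0.0811) and these groups alone (adjusted p = 0.0667). Ocln was lower than in Sort_Fib by -1.07 ± 0.35 (adjusted p = 0.00727) and Perp by -0.67 ± 0.22 (adjusted p = 0.00679) on the log2 scale. Esrp1, lower in 3D-2D by -1.27 ± 0.47 (adjusted p = 0.016), lost that call without replicate 1 of 3D-2D or replicate 3 of Sort_Fib. The Sort_Fib group had been depleted with EpCAM beads and no depletion is described for the cultures, and this difference cannot be told apart from that of culture.

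Between genes, levels were compared per kilobase of annotated exon. In 3D-3D Cldn4 was the most abundant of the 10 at 40.6 ± 11.1 CPM per kb, followed by Epcam at 13.1 ± 4.67, Cdh1 at 9.02 ± 2.03 and Perp at 7.90 ± 3.41 CPM per kb. Ocln, Esrp1 and Dsp were at the bottom, the last at 0.75 ± 0.389 CPM per kb. The order differed in Sort_Fib, where Perp led at 12.6 ± 1.22 CPM per kb and Cldn4 stood at 0.956 ± 0.382. In 2D-3D Cldn2 led at 3.80 ± 1.17 CPM per kb, and in 2D-2D Perp at 1.05 ± 0.423.

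The libraries within the groups grown first in 3D were not equal, and the same libraries were low or high for most of the genes. Replicate 4 of 3D-3D had the lowest level of its group for 9 of the 10 genes, all but Cldn2, and replicate 1 the highest for 7. The ratio of the highest to the lowest 3D-3D library was 6.05 for Pkp1, 4.41 for Cldn7 and 4.29 for Dsp, but 1.66 for Cdh1 and 2.02 for Cldn4. Cldn2 had its lowest 3D-3D level in replicate 3, the library that stood apart over all genes. In 3D-2D replicate 1 was the lowest for 7 genes, and the ratio of the highest to the lowest library reached 12.9 for Pkp1 and 5.91 for Cldn7. The Sort_Fib libraries were closer to each other, with summed levels of the 10 genes of 84.4 to 93.2 CPM, against 128 to 275 CPM in 3D-3D and 29.1 to 66.4 CPM in 3D-2D.

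**Figure D3:**
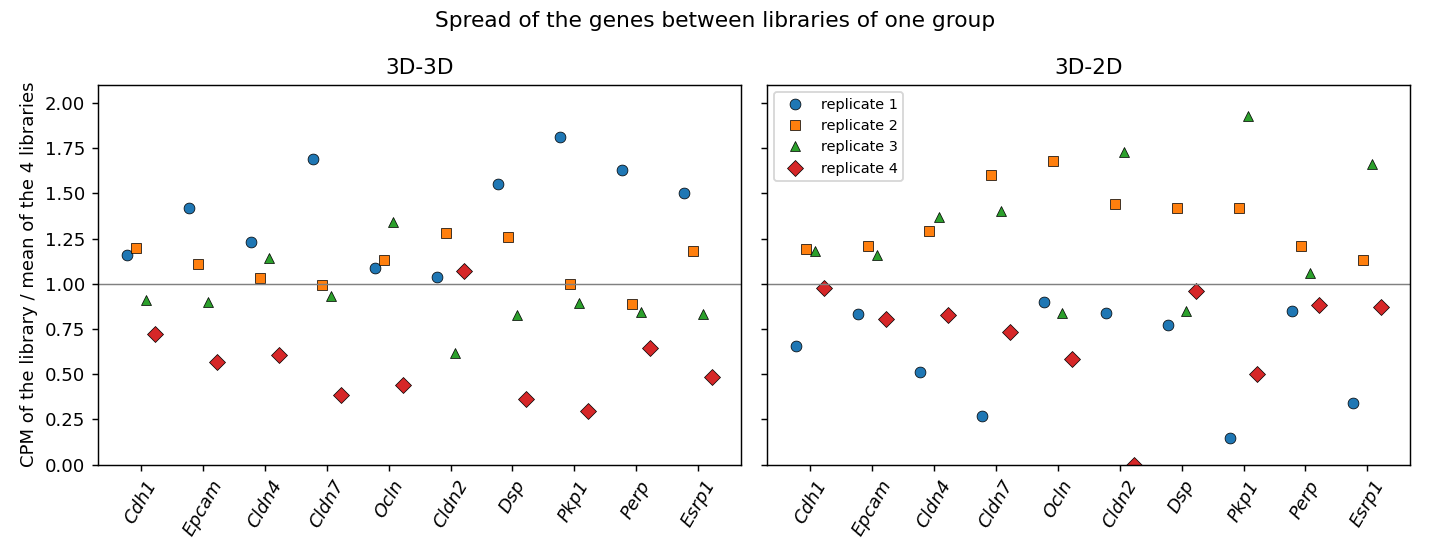
CPM of each library divided by the mean of its 4 libraries, for each gene (x axis) in 3D-3D (left) and 3D-2D (right), with a marker shape and colour per replicate. In 3D-3D replicate 4 lies lowest for all genes but Cldn2, from 0.299 of the mean for Pkp1 to 0.724 for Cdh1, and in 3D-2D replicate 1 lies lowest for 7 genes.

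Other genes of the same structures moved less uniformly. Of 21 further tight junction genes 16 were tested, and from 2D-2D to 3D-3D 11 rose and 1 fell, with a median log2 difference of 1.64. In this comparison 38.6% of all genes were called higher. The widely expressed scaffold gene Tjp1 stood at 54.8 ± 13.9 CPM in 2D-2D and 59.5 ± 6.28 CPM in 3D-3D (0.11 ± 0.13, adjusted p = 0.479), and F11r, which encodes the adhesion protein JAM-A, rose by 0.95 ± 0.12 (adjusted p = 4.27e-07). Of 11 further desmosome and cornified envelope genes 9 were tested, of which 5 rose and 3 fell, with a median of 2.16. Jup, which encodes the plaque protein plakoglobin shared with adherens junctions, stood at 75.8 ± 2.91 CPM in 2D-2D and 75.0 ± 12.6 CPM in 3D-3D (-0.03 ± 0.11, adjusted p = 0.844). Of 10 further adherens junction genes 2 rose and 5 fell, with a median of -0.62. Ctnnb1 (β-catenin) rose by 0.76 ± 0.07 (adjusted p = 7.79e-09), while Ctnna1 (α-catenin) changed by -0.64 ± 0.07 (adjusted p = 4.04e-08) and Vcl (vinculin) by -1.93 ± 0.09 (adjusted p = 2.9e-13).

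Genes known to go with the epithelial state mostly changed in the same direction as the junction genes. All 9 epithelial surface and protease genes rose from 2D-2D to 3D-3D, with a median log2 difference of 5.0, and 8 of them rose from 2D-2D to 3D-2D. Among them Spint1, an inhibitor of membrane serine proteases, rose by 3.76 ± 0.19 (adjusted p = 4.77e-13) and Muc1, a membrane mucin, by 2.96 ± 0.32 (adjusted p = 6.92e-08). All 8 keratin genes rose to 3D-3D, with a median of 7.27 (7.01 with genes at 0 at their bounds). Of 8 tested epithelial regulators 6 rose, yet Esrp2, a relative of Esrp1, changed by -1.38 ± 0.20 (adjusted p = 4.14e-06) with means of 10.9 ± 0.561 CPM in 2D-2D and 4.22 ± 1.60 CPM in 3D-3D. Esrp2 thus had its highest mean in the group in which Esrp1 was at 0. The 6 repressor genes did not move as a block: 2 rose and 3 fell, with a median of -0.45. Those that fell were Twist1 (-1.26 ± 0.14, adjusted p = 7.1e-08), Twist2 (-1.09 ± 0.09, adjusted p = 8.94e-10) and Snai2 (-0.95 ± 0.12, adjusted p = 7.28e-07). Zeb1 did not pass (0.05 ± 0.11, adjusted p = 0.704). Snai1 stood at 352 ± 16.5 CPM in 2D-2D and 440 ± 30.2 CPM in 3D-3D (0.31 ± 0.07, adjusted p = 0.000755), its highest mean of the 5 groups, and Zeb2 rose by 0.75 ± 0.11 (adjusted p = 3.85e-06). Of 4 mesenchymal cadherin genes 2 rose and 1 fell, with a median of 1.59. The gene that fell, Cdh2, the N-cadherin gene, stood at 123 ± 12.1 CPM in 2D-2D, 33.4 ± 2.78 in 2D-3D, 69.5 ± 2.17 in 3D-2D, 33.9 ± 2.43 in 3D-3D and 2.02 ± 0.264 CPM in Sort_Fib.

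Markers of epithelial cell types moved with the junction genes in part. Basal cell markers (6 genes) summed to 1.62 ± 0.546 CPM in 2D-2D, 1.23 ± 0.471 in 2D-3D, 5.59 ± 3.66 in 3D-2D, 67.7 ± 52.5 in 3D-3D and 5.16 ± 0.623 CPM in Sort_Fib. Their defining genes Krt14, Krt15 and Trp63 were at 0 in 2D-2D, and of the 6 genes 5 rose to 3D-3D and 1 fell. The basal sum was 146 CPM in replicate 1 of 3D-3D and 34.5 CPM in replicate 4, the same libraries in which most junction genes were highest and lowest. Keratin genes (8, of which 3 are also in the basal list) summed to 48.5 ± 8.06 CPM in 2D-2D, 11.3 ± 1.99 in 2D-3D, 203 ± 81.1 in 3D-2D, 620 ± 290 in 3D-3D and 173 ± 1.32 CPM in Sort_Fib, again with replicate 1 highest and replicate 4 lowest in 3D-3D. The mesothelial list (8 genes, among them Krt19) summed to 55.5 ± 5.03 CPM in 2D-2D, 18.0 ± 1.94 in 2D-3D, 62.4 ± 12.3 in 3D-2D, 198 ± 92.3 in 3D-3D and 248 ± 3.46 CPM in Sort_Fib, with Krt19 at 160 ± 83.3 CPM and Msln, which encodes mesothelin, at 24.5 ± 8.32 CPM making up most of the 3D-3D sum. Only 3 of the 8 genes rose from 2D-2D to 3D-3D and 2 fell, with a median log2 difference of 0.10. The part of these cell types in the result was not tested.

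Alveolar markers moved with the junction genes in some comparisons of cultures and not in others. From 2D-2D to 3D-3D 7 of 9 tested type 2 genes rose, with a median log2 difference of 4.38, and 6 of 8 type 1 genes rose and 2 fell, with a median of 3.19. Over all genes 38.6% were called higher there. From 3D-3D to 3D-2D 6 of each list fell, against 37.7% of all genes, while 1 of type 2 and 2 of type 1 rose. In the step from 2D-2D to 3D-2D 9 of the 10 junction genes rose. Of the alveolar genes 3 of 9 tested of type 2 and 2 of 8 of type 1 rose there, and 1 of type 1 fell. Over all genes 9.74% were called higher in that step, so that both lists rose in a larger share than all genes. In 3D-2D against 2D-3D, 7 junction genes were higher and 1 was lower. Of the type 2 genes 1 was higher and 5 were lower, and of the type 1 genes 2 were higher and 1 was lower. The shares of all genes in this comparison were 33.2% higher and 36.0% lower. Club and secretory markers (6 genes) summed to 1450 ± 139 CPM in Sort_Fib and to at most 9.68 CPM in any culture, with Bpifa1, Muc5b and Scgb3a2 at 0 in 2D-2D, 2D-3D and 3D-2D. Ciliated markers (8 genes) summed to 402 ± 35.5 CPM in Sort_Fib and to 6.25 to 15.7 CPM on average in the cultures. The alveolar type 2 gene Sftpc stood at 493 ± 25.1 CPM in Sort_Fib, 11.2 ± 4.80 in 3D-3D, 5.07 ± 3.35 in 2D-3D, 0.533 ± 0.271 in 2D-2D and 0.405 ± 0.384 CPM in 3D-2D, and the alveolar type 1 gene Ager at 142 ± 2.18 CPM in Sort_Fib and at most 7.07 CPM in any culture. Abca3 (type 2) and Clic5 (type 1) also had their highest mean in Sort_Fib. The most abundant gene of each list went the other way. Lyz1 (type 2) stood at 151 ± 12.3 CPM in Sort_Fib and at 176 to 514 CPM on average in the cultures. Pdpn (type 1) stood at 56.7 ± 3.12 CPM in Sort_Fib and at 205 to 403 CPM on average in the cultures. Endothelial markers (8 genes) summed to 2010 ± 60.2 CPM in Sort_Fib, 75.5 ± 11.3 CPM in 3D-3D and 9.83 to 23.4 CPM on average in the other cultures. Of the 8 endothelial genes 7 rose from 2D-2D to 3D-3D, with a median log2 difference of 3.69, and all 8 fell from 3D-3D to 3D-2D. In Sort_Fib the junction genes therefore stood beside club, ciliated, alveolar, endothelial and mesothelial markers and keratins. In 3D-3D they stood beside basal, mesothelial and endothelial markers and keratins. Ciliated and club markers also had their highest mean sum of the cultures there, at 15.7 ± 3.1 and 4.82 ± 3.91 CPM. The alveolar sums did not peak there among the cultures. That of type 1 had its lowest mean in 3D-3D (251 ± 25.5 CPM, with 2D-2D at 407 ± 19.5). That of type 2 had its highest culture mean in 2D-3D (630 ± 43.2 CPM, with 3D-3D at 491 ± 60.3 and 2D-2D at 287 ± 33.4). In the cultures Pdpn and Lyz1 made up most of these sums. The part of these cell types was not tested either.

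**Figure D4:**
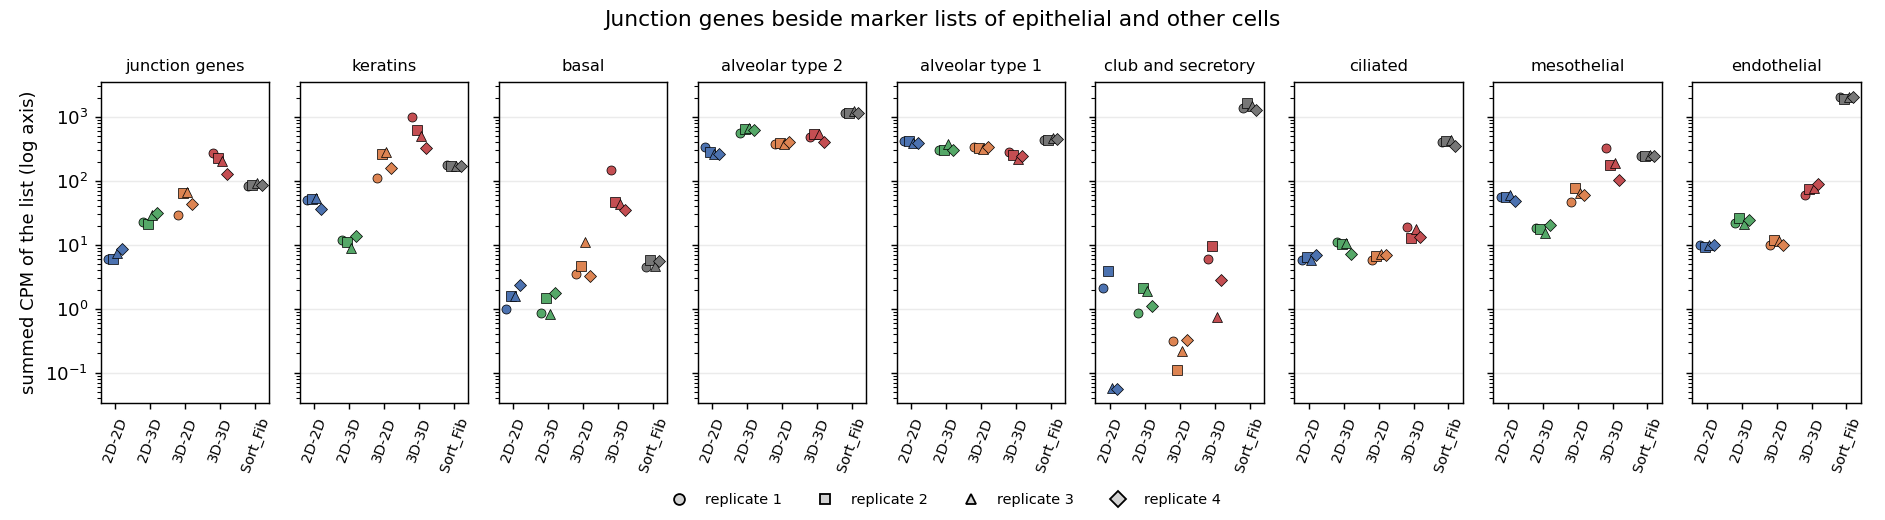
Summed CPM (log axis) of the 10 junction genes, of the keratin genes and of 7 marker lists in each of the 20 libraries, by group (colour) and replicate (marker shape). Junction genes, keratins and basal markers are highest in 3D-3D with replicate 1 on top, while club, ciliated and endothelial markers are highest in Sort_Fib.

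The genes with the most similar profiles to Cdh1 and Cldn2 over the 20 libraries were sought among 14714 others, by the root mean square difference of log2 CPM centred on each gene's mean. For Cdh1 they were Gata5 (0.426), Itgb4 (0.427), Slc39a4 (0.472), Muc1 (0.483) and Lrg1 (0.488). Itgb4, the integrin β4 gene of hemidesmosomes, stood at 2.95 CPM in 2D-2D, 2.28 in 2D-3D, 8.59 in 3D-2D, 24.9 in 3D-3D and 13.6 CPM in Sort_Fib. Of the junction genes, Perp was the nearest to Cdh1, at rank 54 (0.701), followed by Esrp1 at rank 310. For Cldn2 the most similar were Rgs4 (0.728), Rgs5 (0.878), Pcsk5 (0.912), Chodl (0.944) and Adamts3 (1.09), and no junction gene ranked above 1857 (Perp). Rgs5, a regulator of G protein signalling used as a pericyte marker, stood at 0.59 CPM in 2D-2D, 41.3 in 2D-3D, 1.91 in 3D-2D, 165 in 3D-3D and 2.82 CPM in Sort_Fib. Rgs4, of the same family, stood at 0.573, 26.2, 1.73, 68.5 and 4.09 CPM in the same order.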

How the data were processed

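RNA was sequenced from 20 libraries, 4 in each of 5 groups taken from the labels. The authors deposited expected counts per gene and library, estimated from reads aligned to the genome and not normalized. Per the submitters' processing notes HISAT, Bowtie2 and the build GRCm38.p6 were used. No source used here gives their versions, the counting program or its use of strand. Of all values 5.98% were not whole (tolerance 1e-06), none of them in the 10 genes, and the expected counts were rounded. The 5 columns of group averages were not used.

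Genes were filtered with filterByExpr (minimum count 10) and fitted with edgeR 4.0.16 (R 4.3.3, TMM, quasi-likelihood test), on the 16 cultured libraries (13704 genes) or, for Sort_Fib, on all 20 (14715 genes). The SE is approximate, the unshrunken log2 change divided by the root of the F statistic, and unreliable at few counts. The floor for a group at 0 was 3 counts over the group. Alternatives used limma 3.58.1 (voom), DESeq2 1.42.0, other scalings, no filter, a replicate block, the compared groups alone, and each library left out. The labels do not say what a shared number means, and same-numbered libraries showed no strong common deviation, so the numbers were not taken as pairs.

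The 10 genes and all gene lists were chosen with earlier results of these data known. All 10 are named, of each list at most the 3 most abundant genes and markers that define its cell type, the bead targets, and the 5 genes most like Cdh1 and Cldn2. All 6 repressor genes are named, those beyond the 3 most abundant after their values were seen. Markers named beyond these because they stood at 0 were chosen after their values were seen. Promoter windows are RefSeq entries on GRCm38.p6.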

Additional observations from a re-analysis of the deposited data

Results flagged for a closer look

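In 5 of 47 groups of 4 libraries tested, 1 library lay far from the other 3, where chance gives about 1 in 20. Cdh1 stood at 8.04 CPM in replicate 1 of 2D-3D, and the other 3 libraries at 5.31 to 5.72 CPM. Ocln stood at 1.07 CPM in replicate 2 of 2D-3D, and the others at 0.19 to 0.325 CPM. The remaining 3 cases rest on 1 or 2 counts against 0: Pkp1 at 0.0578 CPM in replicate 3 of 2D-2D, Pkp1 at 0.0697 CPM in replicate 1 of Sort_Fib and Esrp1 at 0.0952 CPM in replicate 1 of 2D-3D.

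The response to a second culture in 3D differed with the first culture for 3 genes by edgeR's test of the interaction, which called 10.3% of all genes higher and 9.10% lower. The log2 difference of responses was 0.96 for Cdh1 and 4.2 for Epcam, both larger after 3D. For Epcam the response after 2D rests on 7 counts over 2D-2D and 6 over 2D-3D, so that its size is uncertain. For Cldn2 the difference of responses was negative at an adjusted p of 0.0491, with 2D-2D at 0. None of the 3 calls was made with limma-voom, where the adjusted p was 0.0645 for Cdh1 and 0.0986 for Epcam. The call of Cdh1 was lost without replicate 4 of 2D-2D, that of Epcam without replicate 3 of 2D-2D, and that of Cldn2 in 12 of 16 fits that left out 1 library.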

How the results depend on the processing

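Apart from leaving out libraries, 146 of 154 counts of called genes stayed within 1.5 times and 669 of 693 log2 changes kept their direction and side of the threshold. The interaction count of lower genes went from 1 to 0 with library size alone, limma-voom and the replicate block, and that of higher genes from 2 to 0 with limma-voom. With limma-voom the genes higher in 2D-3D than 2D-2D went from 4 to 2. With the compared groups alone, the counts of genes higher in 3D-2D were 5 against 2D-2D, 4 against 2D-3D and 1 against Sort_Fib, in place of 9, 7 and 2, because the genes missing from them no longer passed the filter on low counts and were not tested. Leaving out 1 library gave 1 to 3 higher and 0 to 1 lower for the interaction. The log2 change of Cldn4 between 2D-3D and Sort_Fib, 0.10, was -0.03 with limma-voom and ran from -0.40 to 0.34 with 1 library left out. In the same way that of Epcam between 2D-3D and 2D-2D ran from -0.87 to 0.28, and that of Cldn2 between 2D-3D and 3D-3D from -0.21 to 0.11. Apart from the filter, the cause was not tested in any of these cases. Same-numbered libraries of different groups had correlations of deviations of -0.082 to 0.119 (median -0.004, 1 of 40 over 0.1). No strong common deviation was thus seen, but this cannot exclude that they share an origin, which the labels do not give. Under the replicate block 7 genes were higher in 3D-2D than 2D-2D, and with limma-voom the calls of Cldn2, Cldn7 and Ocln were lost there. Scaling by library size alone moved the median log2 change of all genes by 0.32 between 3D-3D and 2D-2D and by 0.278 between 2D-3D and 2D-2D. Depth limits Epcam, Cldn7, Dsp, Pkp1 and Esrp1 in the groups grown first on 2D, which held 0 to 13 counts of each.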
